A study of Homo sapiens with 3 samples.

Results

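A set of 6 long noncoding RNAs was followed in a list of m6A regions from nuclear RNA: KCNQ1OT1, TUG1, GAS5, SNHG1, OIP5-AS1 and LINC00657, which is also called NORAD. A region was assigned to an RNA when its midpoint lay in a fixed hg19 window around the gene, and 24 of the 41836 regions of the list (0.0574%) were assigned in this way. The windows follow gene position, but the RNAs and windows were chosen with earlier results of these data known. They ran from 2629 to 2722 kb on chromosome 11 for KCNQ1OT1, from 31365 to 31376 kb on chromosome 22 for TUG1, from 173833 to 173838 kb on chromosome 1 for GAS5, from 62619 to 62624 kb on chromosome 11 for SNHG1, from 41576 to 41602 kb on chromosome 15 for OIP5-AS1 and from 34633 to 34639 kb on chromosome 20 for LINC00657. TUG1 and OIP5-AS1 lie on the plus strand and the other four on the minus strand.

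The study used MDA-MB-231, an established line of human breast cancer cells. Its 3 libraries hold nuclear RNA bound by an m6A antibody (2 libraries) or by control IgG (1 library), and the labels name no genetic change or treatment in any of them. The deposited outcome is 1 list for the series with no value for a single library, so read depth, enrichment over IgG and replicate error are unknown, and every value below is a single value without a replicate check. RNA levels were not measured here either, so an RNA without a listed region is not shown to be without m6A.

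N6-methyladenosine, or m6A, is a methyl mark that the METTL3 and METTL14 complex places on adenosines of nascent RNA, mostly within the DRACH consensus, in which the methylated adenosine is followed by a cytosine. Reader proteins of the YTH family recognise it and can alter splicing, export or decay. The RNAs studied here differ in how they are made. GAS5 and SNHG1 are spliced hosts whose introns give rise to small nucleolar RNAs, which guide the modification of ribosomal RNA. NORAD binds the Pumilio repressor proteins and is a single-exon RNA, OIP5-AS1 (Cyrano) is known for directing the decay of miR-7, TUG1 is a broadly expressed RNA with retained introns, and KCNQ1OT1 is a long, largely unspliced RNA, antisense to KCNQ1, that takes part in imprinted silencing.

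In GENCODE release 29 (GRCh38) the genes measure 91.67 kb for KCNQ1OT1, 25.75 kb for OIP5-AS1, 10.15 kb for TUG1, 5.34 kb for NORAD, 4.98 kb for GAS5 and 3.93 kb for SNHG1. KCNQ1OT1 and NORAD are each listed there with 1 transcript of 1 exon, whereas GAS5 has 29 transcripts, SNHG1 25, TUG1 20 and OIP5-AS1 10. RefSeq on the same assembly places 11 small nucleolar RNA genes inside GAS5, 9 inside SNHG1 and 0 inside each of the other four, whereas GENCODE lists 0 inside GAS5 and 7 inside SNHG1. RefSeq classes TUG1 as protein-coding and the other 5 genes as long noncoding RNAs.

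The RNA letters that m6A antibodies are expected to meet were read from the longest GENCODE transcript of each gene that is not a retained intron. Among the DRACH pentamers GGACT, which the RNA writes with a final U, is the form most often reported as methylated. It was searched on the RNA strand only, and each match is also a DRACH match. GGACT occurred 2 times in the 1007 nt of GAS5-222, 1 time in the 1487 nt of SNHG1-206 and 2 times in the 5339 nt of NORAD-201. Of all consecutive stretches of 45 nt in the longest transcripts of 11949 long noncoding RNA genes of at least 500 nt, 4.0% hold GGACT. For the 3 RNAs with the densest m6A regions, 4 of these sites are shown with 20 nt on each side, 5′ to 3′ in DNA letters and with GGACT in capitals, to show what a candidate site looks like in them. No genome of the list's build was used, so it is not known whether any listed region covers one of these sites.
GAS5-222, bases 844 to 888: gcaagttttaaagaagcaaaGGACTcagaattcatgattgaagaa
SNHG1-206, bases 1401 to 1445: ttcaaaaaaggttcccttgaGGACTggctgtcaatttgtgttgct
NORAD-201, bases 2778 to 2822: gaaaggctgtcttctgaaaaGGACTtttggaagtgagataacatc
NORAD-201, bases 4657 to 4701: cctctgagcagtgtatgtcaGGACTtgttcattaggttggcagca

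m6A regions were listed in 5 of the 6 RNAs. SNHG1 and LINC00657 held 6 each, GAS5 5, OIP5-AS1 4, TUG1 3 and KCNQ1OT1 0. All 24 lay on the strand from which the RNA is transcribed (100%, exact 95% interval 85.8 to 100%, which covers counting error only and treats regions of the same RNA as independent). Of these, 17 were on the minus strand and 7 on the plus strand. The list as a whole holds 57.4% of its regions on the minus strand.

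**Figure D1:**
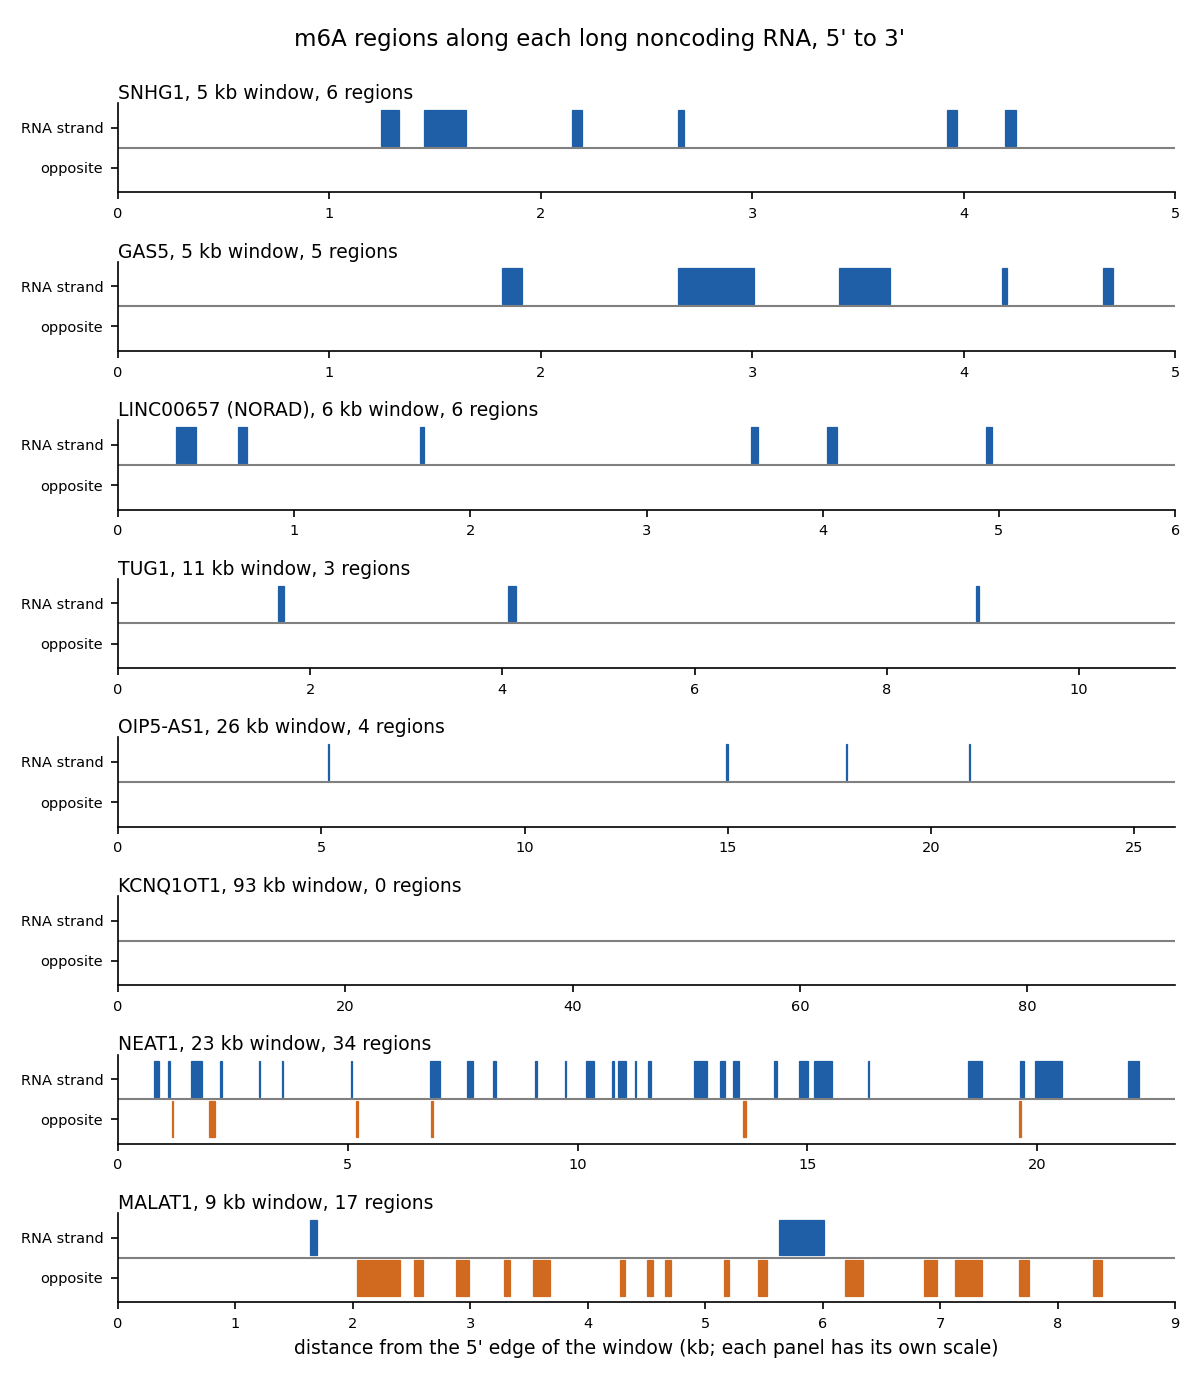
m6A regions along each RNA, drawn to scale from the 5′ edge (left) to the 3′ edge (right) of its window, in kb, with each panel on its own scale. Blue boxes lie on the strand of the RNA and orange boxes on the opposite strand; the 6 RNAs studied have only blue boxes and KCNQ1OT1 has none, while NEAT1 has 6 and MALAT1 15 orange boxes.

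The density of m6A regions separated the RNAs more than their number did. Among the 5 RNAs with regions the number ran only from 3 to 6, whereas the windows ran from 5 to 26 kb. Density therefore depends largely on window length here. On the RNA's strand SNHG1 had 1.2 regions per kb of window (exact 95% Poisson interval 0.44 to 2.61), GAS5 1.0 (0.325 to 2.33) and LINC00657 1.0 (0.367 to 2.18). TUG1 had 0.273 (0.056 to 0.797) and OIP5-AS1 0.154 (0.042 to 0.394). The intervals cover counting error only. The intervals of SNHG1, GAS5 and LINC00657 overlap almost fully, and that of TUG1 overlaps all 4 others with regions. Those of OIP5-AS1 and SNHG1 do not overlap. The intervals treat regions of the same RNA as independent, so they do not settle the order, and no test was made. KCNQ1OT1, with 0 regions in its window of 93 kb, was given no interval. Over the whole list the mean was 0.00697 regions per kb and strand, a figure that includes silent genes and intergenic DNA.

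The covered share gave a different order. GAS5 had 768 nt covered, or 15.36% of its window. In SNHG1 456 nt were covered (9.12%), in LINC00657 316 nt (5.27%), in TUG1 175 nt (1.59%) and in OIP5-AS1 125 nt (0.48%). GAS5, with fewer regions than SNHG1 or LINC00657, was thus covered most. The 2 small nucleolar RNA hosts, among 5 RNAs with regions, together carried 11 of the 24 regions. The number does not set hosts apart, since LINC00657, which is no such host, held as many regions as SNHG1. Relative to the GENCODE gene length in place of the window, the covered share was 15.41% for GAS5, 11.61% for SNHG1, 5.92% for NORAD, 1.72% for TUG1 and 0.49% for OIP5-AS1, in the same order. Regions per kb of gene length were 1.528 for SNHG1, 1.124 for NORAD, 1.003 for GAS5, 0.296 for TUG1 and 0.155 for OIP5-AS1. The density of SNHG1 in particular therefore depends on the length of its window. Windows and genes also include introns to unequal degrees. Exons of any GENCODE transcript make up 49.2% of OIP5-AS1, 72.9% of GAS5, 95.6% of SNHG1 and 100% of TUG1 and NORAD. Density per kb of exon was not computed.

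**Figure D2:**
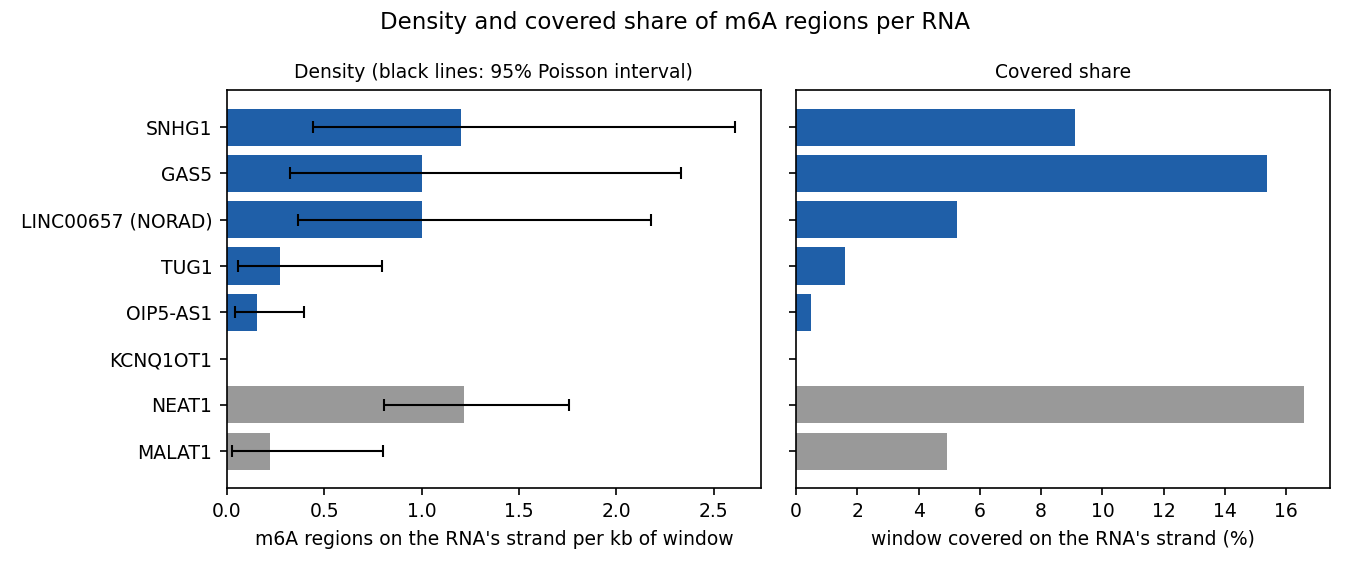
Left, m6A regions on the RNA's strand per kb of window, with exact 95% Poisson intervals as black lines; right, percent of the window covered on that strand. The 6 RNAs studied are in blue and 2 comparison RNAs in grey; SNHG1, GAS5 and LINC00657 have 1.0 to 1.2 regions per kb and KCNQ1OT1 has none.

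To place these numbers in the list, each chromosome and strand was divided into consecutive tiles as long as the RNA's window. Only 0.0314% of 1199916 tiles of 5 kb held at least 6 regions, as SNHG1 does, and 0.0618% held at least 5, as GAS5 does. Of 999934 tiles of 6 kb, 0.0472% held at least the 6 regions of LINC00657. For TUG1 the share was 0.811% of 545426 tiles of 11 kb, and for OIP5-AS1 1.42% of 230772 tiles of 26 kb. Most tiles are empty, so the tiles with any region are the closer comparison for a transcribed gene. Among those, 1.38% reached the count of SNHG1, 1.81% that of LINC00657, 2.72% that of GAS5, 19.4% that of OIP5-AS1 and 20.1% that of TUG1. The windows were placed on genes and the tiles on a fixed grid, which can split a cluster, and these shares are descriptions with no test.

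**Figure D3:**
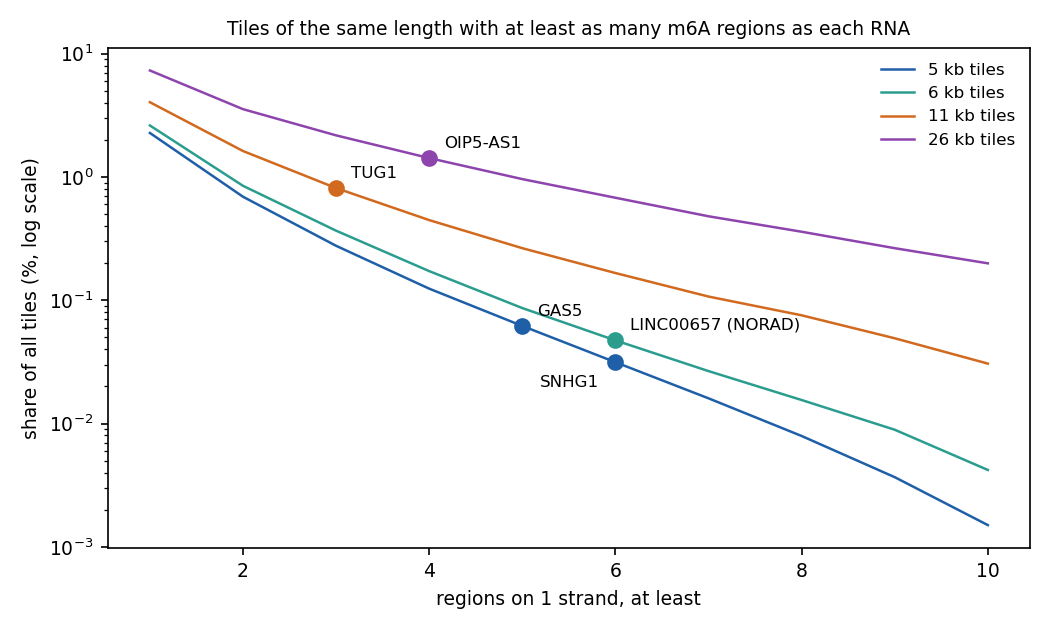
Share of all tiles of the same length (percent, log scale) that hold at least the number of regions on the horizontal axis on 1 strand, with 1 line per tile length and a dot for each RNA at its own count. SNHG1, LINC00657 and GAS5 lie where under 0.1% of tiles remain, and OIP5-AS1 at 1.42%. Most tiles are empty. Among tiles with any region, which are not drawn, the shares are 1.38% for SNHG1, 1.81% for LINC00657, 2.72% for GAS5 and 19.4% for OIP5-AS1.

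GAS5, a host gene whose spliced RNA is linked to growth arrest, carried its m6A regions in 1 cluster when same-strand regions up to 1 kb apart were joined, and in 3 at 0.5 kb. From 5′ to 3′ they were chr1:173836088-173836183 (96 nt), chr1:173834994-173835349 (356 nt), chr1:173834348-173834591 (244 nt), chr1:173833796-173833818 (23 nt) and chr1:173833294-173833342 (49 nt), all on the minus strand of hg19. The first 1.82 kb of the window were empty, 4 of the 5 midpoints lay past its centre, and the gaps between regions were 402 to 738 nt. The regions of 356 and 244 nt made up 46.4% and 31.8% of all covered bases of GAS5. They were wider than 99.7% and 99.0% of the regions of the list.

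SNHG1, the host of small nucleolar RNAs at chromosome 11, had regions in 2 groups at a joining distance of 1 kb, in 3 at 0.5 kb and in 1 at 2 kb. The 5′ group consisted of chr11:62622673-62622755 (83 nt), chr11:62622357-62622552 (196 nt), chr11:62621805-62621854 (50 nt) and chr11:62621323-62621351 (29 nt). After a gap of 1242 nt the 3′ group followed with chr11:62620035-62620080 (46 nt) and chr11:62619755-62619806 (52 nt). The first 1.25 kb of the window held no region, and the widest region, at 196 nt, gave 43.0% of the covered bases and exceeded 98.0% of the list in width. In each of the 5 RNAs with regions, hosts or not, the widest region was among the first 2 from the 5′ side. TUG1 has only 3 regions and OIP5-AS1 only 4, so this is a weak pattern, and it was not tested. In the comparison RNA NEAT1 the widest region (575 nt) lay 88.0% of the way from the 5′ edge of the window. In MALAT1 the widest (384 nt) lay at 64.7%.

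LINC00657 (NORAD) had regions nearer to the 5′ edge of its window than any other RNA studied, though distances from RNA ends were not measured. The first, chr20:34638557-34638672 (116 nt), began 0.33 kb from the 5′ edge of the window and was also the widest, with 36.7% of the covered bases. It was followed by chr20:34638268-34638316 (49 nt), chr20:34637262-34637285 (24 nt), chr20:34635366-34635405 (40 nt), chr20:34634921-34634973 (53 nt) and chr20:34634040-34634073 (34 nt). At a joining distance of 1 kb these 6 regions formed 2 groups of 3, separated by a gap of 1856 nt, but there were 4 groups at 0.5 kb and 1 at 2 kb. Since GENCODE gives NORAD as 1 exon, a region inside the gene cannot lie in an intron of it; the positions of its exon in hg19 were not used here.

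TUG1, which was first described as a taurine-upregulated RNA, had 3 regions far apart. They were chr22:31366671-31366726 (56 nt), chr22:31369056-31369146 (91 nt) and chr22:31373933-31373960 (28 nt) on the plus strand, with gaps of 2329 and 4786 nt. None exceeded 100 nt. Its regions lay at 15.4, 37.3 and 81.3% of the way from the 5′ to the 3′ edge of the window, with no cluster at a joining distance of 1 kb.

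OIP5-AS1 had 4 narrow regions spread over 15.79 kb. They were chr15:41581157-41581190 (34 nt), chr15:41590954-41590993 (40 nt), chr15:41593899-41593924 (26 nt) and chr15:41596921-41596945 (25 nt), all on the plus strand. All 4 were narrower than the list's median of 45 nt, and 3 of the 4 lay past the centre of the window. The gap between the first and the second was 9763 nt and the other gaps were 2905 and 2996 nt. Of the list, 11.1% of regions were narrower than its narrowest one.

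KCNQ1OT1 had no m6A region on either strand, although its window of 93 kb was the longest. The listed region nearest to it was chr11:2755049-2755093 on the minus strand, 33.05 kb beyond the 5′ edge. On the 3′ side the next region on either strand was chr11:1785034-1785062, also on the minus strand, so that 970.0 kb of chromosome 11 were without a region on either strand. An empty window of 93 kb is common on 1 strand of the list, where 82.9% of 64534 tiles of that length held no region. Those tiles include silent genes and intergenic DNA. How often both strands of a tile are empty, and how usual a stretch of 970.0 kb is, was not counted. KCNQ1OT1-201 contains 79 GGACT and 2278 DRACH matches in 91667 nt, or 24.85 DRACH matches per kb of transcript, more than 81.2% of the long noncoding RNA genes above.

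Widths ran from 23 to 356 nt in GAS5 but only from 25 to 40 nt in OIP5-AS1. The 24 regions had a median of 49 nt and ran from 23 to 356 nt, and the list had a median of 45 nt with quartiles of 33 and 54 nt. Regions over 100 nt numbered 4 of 24 (16.7%), against 10.3% of the list; 2 were in GAS5 and 1 each in SNHG1 and LINC00657. In 14 of 24 the width was above the list's median and in 10 below it. The median per RNA was 96 nt in GAS5, 56 nt in TUG1, 51 nt in SNHG1, 44.5 nt in LINC00657 and 30 nt in OIP5-AS1. No same-strand pair of the list lies closer than 101 nt, and the smallest gap among these RNAs was 120 nt, in SNHG1. The sources used here do not state how close regions were handled when the list was made.

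**Figure D4:**
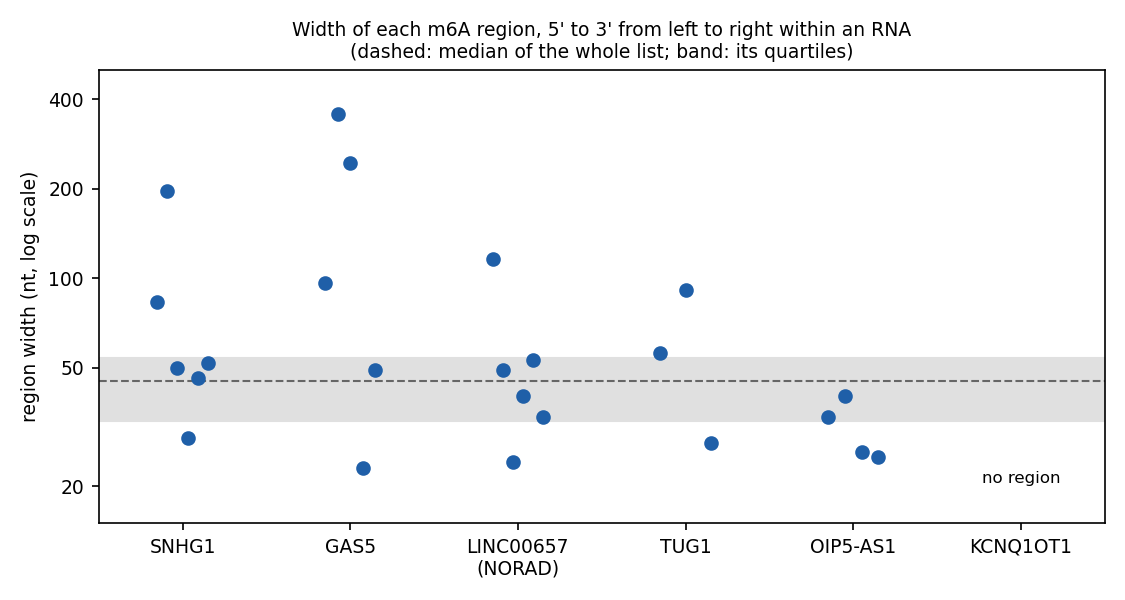
Width in nt (log scale) of every m6A region of the RNAs studied, ordered 5′ to 3′ within each RNA, with the median (45 nt, dashed) and quartiles (33 to 54 nt, band) of the whole list. GAS5 has the widest regions at 356 and 244 nt, and all 4 of OIP5-AS1 lie under the median.

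DRACH letters and m6A regions did not follow the same order over the RNAs. Per kb of transcript, DRACH matches numbered 24.85 in KCNQ1OT1, 24.1 in TUG1, 21.63 in OIP5-AS1, 19.86 in GAS5, 18.16 in SNHG1 and 17.04 in NORAD, beside a median of 20.08 over the 11949 long noncoding RNA genes. The 3 RNAs with at least 1.0 region per kb therefore had the 3 lowest values of the 6. The 2 comparison RNAs were split. NEAT1 had 16.05 DRACH matches and 1.217 same-strand regions per kb. MALAT1 had 19.41 DRACH matches per kb, below GAS5, but only 0.222 same-strand regions per kb of window. GGACT had another order, with 1.99 per kb in GAS5, 0.94 in TUG1, 0.86 in KCNQ1OT1, 0.79 in OIP5-AS1, 0.67 in SNHG1 and 0.37 in NORAD, beside a median of 0.87. With 6 RNAs, 1 transcript chosen for each and introns left out, these values are set side by side only.

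NEAT1, the scaffold RNA of paraspeckles, and MALAT1, an RNA of nuclear speckles, were compared in windows from 65.19 to 65.213 Mb and from 65.265 to 65.274 Mb on chromosome 11, where both are transcribed from the plus strand. NEAT1 had 28 regions on its strand and 6 on the opposite one, or 1.217 per kb on its strand (exact 95% Poisson interval 0.809 to 1.76), a density within the intervals of SNHG1, GAS5 and LINC00657. Its covered share on that strand was 16.59%, near the 15.36% of GAS5, and 0.00307% of 260874 tiles of 23 kb reached its count. MALAT1 had 2 regions on its strand and 15 on the opposite one, and 1.31% of 666628 tiles of 9 kb held at least 2. The share on the RNA's own strand was therefore 24 of 24 in the RNAs studied, 82.4% in NEAT1 (exact 95% interval 65.5 to 93.2%) and 11.8% in MALAT1 (1.5 to 36.4%). The 24 of 24 is pooled over 5 RNAs. Taken singly, their exact 95% intervals reach down to 29.2% in TUG1, 39.8% in OIP5-AS1, 47.8% in GAS5 and 54.1% in SNHG1 and LINC00657. Each of these contains the 82.4% of NEAT1, so no single RNA is set apart from NEAT1. Listed regions thus do not always lie on the strand of the RNA named at a locus, and why was not tested. The accuracy of the strand column for the 24 regions was not tested either.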

How the data were processed

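Nuclear RNA of MDA-MB-231 cells was sequenced after capture with an m6A antibody (2 libraries) or IgG (1 library). Per the submitters' processing notes, the aligner was Bowtie2 and the build hg19. How peaks were called and libraries combined is not given in the sources used here. For each region the deposited list holds a start and an end, and the score that the authors deposited is 1 for every region and was not used. Region numbers run from 1 to 41836 with 0 missing.

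Positions are in hg19, counted from 1. Width is the deposited end minus start, and covered bases were counted once. Clusters join same-strand neighbours separated by no more than 1 kb. Tiles ran from the first to the last region of a chromosome. Intervals are exact at 95% and cover counting error only. Gene structure and transcript letters came from GENCODE release 29 and RefSeq (GRCh38); all 6 RNAs matched by symbol, and no coordinate was compared between builds. All 6 RNAs are named, with every region. The members, windows and comparison RNAs were chosen with earlier results of these data known; the windows of NEAT1 and MALAT1 and the choice of GGACT came from general knowledge. The letters of 1 GGACT site are not reported here. Functions were tested on simulated data. The software was scipy 1.17.1, numpy 2.4.6, matplotlib 3.10.9 and pandas 2.3.3 in Python 3.11.15.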

Additional observations from a re-analysis of the deposited data

How the results depend on the processing

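Every alternative was planned, and 105 of 116 values kept within 1.5 times of the main one (strand shares within their interval, mean positions within 1 SD over regions). Part of the 105 could not move. Opposite-strand regions numbered 0, so keeping only the RNA's strand (12 values) or using both strands (5) repeated the main value. Filters that only remove regions could not change the 0 of KCNQ1OT1 or a strand share of 100%. Leaving out regions of 49 nt took regions only from GAS5 and LINC00657. The 105 is therefore no measure of robustness. At the width limit of 50 nt, 5 values left this range and 11 did not. With regions of at least 30 nt, OIP5-AS1 kept 2 regions and a covered share of 0.28%. With regions of at least 50 nt, it kept 0 regions (0%), GAS5 3 and LINC00657 2 (2.82% covered). The regions of KCNQ1OT1 stayed at 0 throughout. Clusters depended on the joining distance: at 0.5 kb GAS5 had 3 and LINC00657 4, and at 2 kb SNHG1 and LINC00657 had 1 each. The share on the RNA's strand has no value for KCNQ1OT1, or for OIP5-AS1 at 50 nt. A window widened by 1 kb added 1 region each to GAS5 (5 to 6) and TUG1 (3 to 4, with 3 on its strand). No paired analysis was possible because the list has no values per library, and for the same reason no library could be left out. Depth is unknown, so it cannot be said which of the RNAs without or with few regions were covered by too few reads.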

Other observations

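In flanks as long as the window, SNHG1 and LINC00657 had 0 regions on both sides and both strands, and the other 4 RNAs had at least 1. Empty flanks are common, since 97.7% of tiles of 5 kb and 97.4% of tiles of 6 kb hold no region on their strand. The nearest same-strand regions lay 456.42 kb beyond the 5′ edge and 91.16 kb beyond the 3′ edge of LINC00657, and 942.86 and 110.99 kb beyond those of TUG1.

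Some regions lay just outside a window. For GAS5 a further minus-strand region of 41 nt, chr1:173832777-173832817, lay 0.18 kb beyond the 3′ edge, and a plus-strand region of 49 nt, chr1:173839678-173839726, lay 1.68 kb beyond the 5′ edge. The member nearest to an edge was chr1:173833294-173833342 of GAS5, with its midpoint 0.32 kb inside. For TUG1 a minus-strand region of 43 nt, chr22:31364181-31364223, lay 0.78 kb before the 5′ edge, opposite in strand to TUG1, which GENCODE classes as a bidirectional-promoter RNA. OIP5-AS1 had 2 further plus-strand regions in the 26 kb before its window, the nearer being chr15:41573707-41573744, 2.26 kb from the edge, and 1 in the 26 kb after it. Whether any of these belongs to the same transcript was not tested.

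Within 500 kb on each side of the KCNQ1OT1 window the list held 23 regions, all on the minus strand and all beyond its 5′ edge.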
